A study of Mus musculus with 8 samples.

Results

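The 10 genes described here encode inducible acute phase proteins of the liver: the serum amyloids Saa1, Saa2, Saa3 and Saa4, the orosomucoids Orm1 and Orm2, the pentraxins Crp and Apcs, haptoglobin (Hp) and lipocalin 2 (Lcn2). They were taken by gene symbol from the table of gene expression, in which all 10 of 16133 genes were present, and from the gene names of the m6A peak lists. The samples were livers of mice labelled METTL14Alb, which lack METTL14 in the liver and are called KO, and of floxed METTL14f/f mice, called WT. METTL14 is a subunit of the methyltransferase that places N6-methyladenosine (m6A) on mRNA. The allele name METTL14Alb points to a Cre driven by the albumin promoter, which acts in hepatocytes, and the other cells of the liver would keep the gene. Mice of both genotypes had received an intraperitoneal injection of tunicamycin, an inhibitor of N-linked glycosylation that stresses the endoplasmic reticulum (ER), 24 hours earlier at 2 mg/kg, and livers without tunicamycin were not analysed here. Polyadenylated RNA was sequenced before (input) and after immunoprecipitation (IP) with an m6A antibody, in 2 libraries each of KO input, WT input, KO IP and WT IP. The sources used here give neither the age nor the sex of the mice, nor do they say that the libraries of a group stem from different mice. The p-values therefore reflect only how far these libraries differ, which may be technical.

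Acute phase proteins are secreted by hepatocytes into the blood when interleukin-6 and interleukin-1 signal injury or infection, through STAT3, NF-kB and members of the C/EBP family. In the mouse, serum amyloid A is among the most strongly induced of these proteins, whereas C-reactive protein changes little in the mouse and strongly in humans. In mouse liver the ER-bound factor Creb3l3, released by ER stress, also activates the genes of serum amyloid P (Apcs) and C-reactive protein.

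Mettl14 itself had 64.6 and 62.0 normalized counts in the KO input libraries, against 79.8 and 99.7 in the WT input libraries. Both KO values lay below both WT values, but the difference (log2 change -0.50 ± 0.41, SE) did not pass the test (DESeq2 adjusted p = 0.342, authors' deposited table). Before scaling, the Mettl14 reads were 81 and 73 in the KO input libraries, against 74 and 74 in the WT input libraries. The order of the libraries thus comes from their scaling. Scaling to equal total counts instead moves all log2 changes up by 0.82, which is more than this fall. The sources used here do not say whether the counted reads cover the deleted part. The deposited table gives 1 comparison and does not name its numerator. It was read as KO over WT because, of 347 genes with a log2 change above 2 and a mean count of at least 100, 156 had peaks only in the KO list and 0 only in the WT list, whereas of 403 genes below -2 the numbers were 30 and 46. For 16028 of the 16133 genes, the read counts of single libraries could be worked out from the deposited means. The letters A and B stand for the libraries of a genotype, whose replicate numbers are not known. Estimated totals were 12571477 and 12403752 reads in KO A and KO B, against 16884501 and 13447610 reads in WT A and WT B. Recovered reads made up 73.9% and 75.2% of these totals in KO A and KO B, and 70.1% and 70.0% in WT A and WT B. The rest was filled in from the genotype means of the genes not recovered, so shares of reads and equal totals rest on estimates. A normalized count is a read count divided by the size factor of its library. It is not corrected for transcript length, so levels are compared between libraries and not between genes.

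Saa3, Saa4, Saa1 and Saa2 lie in this order on chromosome 7, at chr7:46711998-46719615, chr7:46727992-46732603 and chr7:46740497-46743181 on the minus strand and chr7:46751833-46754313 on the plus strand (mm10, positions of RefSeq on GRCm38.p6). Promoter sequences from RefSeq were at hand for 8 of the 10 genes, not for Orm1 and Hp. Those of the 3 inducible serum amyloid genes with the largest falls, of Orm2 and of Lcn2 are given. Each is the 250 bases upstream of the gene start, 5′ to 3′ in the direction of transcription. Those of Saa4, Crp and Apcs are not printed, and Crp and Apcs lack the C/EBP letters described next. Capitals mark the letters TTGCNNAA, a core of the site bound by C/EBP factors, on either strand.
Saa1: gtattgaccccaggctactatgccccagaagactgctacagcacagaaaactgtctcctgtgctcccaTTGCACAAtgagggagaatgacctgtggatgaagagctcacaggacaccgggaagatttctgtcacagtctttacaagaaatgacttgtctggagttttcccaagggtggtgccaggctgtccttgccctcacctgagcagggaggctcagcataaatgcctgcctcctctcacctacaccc
Saa2: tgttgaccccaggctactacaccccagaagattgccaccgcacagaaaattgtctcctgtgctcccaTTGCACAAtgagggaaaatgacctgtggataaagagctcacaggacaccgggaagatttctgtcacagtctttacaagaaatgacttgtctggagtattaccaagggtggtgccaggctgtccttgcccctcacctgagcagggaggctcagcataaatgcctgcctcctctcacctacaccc
Saa3: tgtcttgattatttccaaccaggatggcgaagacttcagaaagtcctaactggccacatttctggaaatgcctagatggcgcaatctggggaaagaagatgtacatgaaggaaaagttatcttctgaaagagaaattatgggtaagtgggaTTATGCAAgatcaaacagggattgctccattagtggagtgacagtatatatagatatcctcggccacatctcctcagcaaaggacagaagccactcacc
Orm2: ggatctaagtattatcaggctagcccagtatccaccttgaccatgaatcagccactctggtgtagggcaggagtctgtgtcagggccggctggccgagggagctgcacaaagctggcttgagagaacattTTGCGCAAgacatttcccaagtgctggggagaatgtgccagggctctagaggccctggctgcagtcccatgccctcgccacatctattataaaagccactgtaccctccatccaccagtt
Lcn2: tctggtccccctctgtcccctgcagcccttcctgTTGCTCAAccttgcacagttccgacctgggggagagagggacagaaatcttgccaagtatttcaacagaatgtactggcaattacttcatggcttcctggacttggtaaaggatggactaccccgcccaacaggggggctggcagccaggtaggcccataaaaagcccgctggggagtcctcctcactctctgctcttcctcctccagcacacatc
They lie at chr7:46742981-46743230 (minus), chr7:46751583-46751832 (plus), chr7:46715677-46715926 (minus), chr4:63362199-63362448 (plus) and chr2:32387740-32387989 (minus) on GRCm38.p6. For Saa1 and Saa3 the start used for the promoter lies inside the gene's annotated span. The promoters of Saa1 and Saa2 were nearly the same sequence, with 287 of 299 aligned bases identical (96.0%) in the windows that run from 250 bases before to 50 bases after the start, and the C/EBP core began 182 and 183 bases upstream. It began 99 bases upstream in Saa3, 245 and 52 bases upstream in Saa4, 120 bases upstream in Orm2 and 216 bases upstream in Lcn2. The core was thus found in 6 of the 8 promoters, all but Crp and Apcs, and in 10.8% of the 32851 mouse promoters of the same length. The STAT core TTCNNNGAA was found in Apcs alone, and the core of the IL-6 response element of this class, CTGGGAA, likewise in Apcs alone, against 8.30% and 11.1% of all promoters. A core of the NF-kB site was found in 0 of the 8 and in 1.63% of all promoters, and the TATA box letters TATAAA in Orm2 and Crp and in 13.6% of all promoters. These 5 patterns, each searched on both strands, were chosen from 23 after their matches had been seen, and overlaps between patterns were allowed. A match is a run of letters and no evidence of binding.

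All 10 genes had lower mRNA levels in KO livers at an adjusted p under 0.05 (Wald test of DESeq2, Benjamini-Hochberg adjustment over all tested genes, in the authors' deposited table). Of all 14257 tested genes, 22.2% were lower by the same rule, 20.4% were higher and 42.5% were called in either direction. Among the 2218 tested genes with a mean count at least that of the lowest member, 58.1% were lower. The median log2 change of the 10 genes was -4.11, against -0.64 in those 2218 genes and 0.05 in all tested genes. A fall of at least 16-fold was seen in 6 of the 10 genes (Saa1, Saa2, Saa3, Saa4, Orm2 and Crp) and in 0.561% of all tested genes. A fall of at least 2-fold was seen in all 10 genes, in 12.6% of all tested genes and in 34.4% of the 2218. For the 9 genes with recovered counts, both KO libraries lay below both WT libraries, an order found in 39.5% of 12767 recovered genes with a mean of at least 10.

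**Figure D1:**
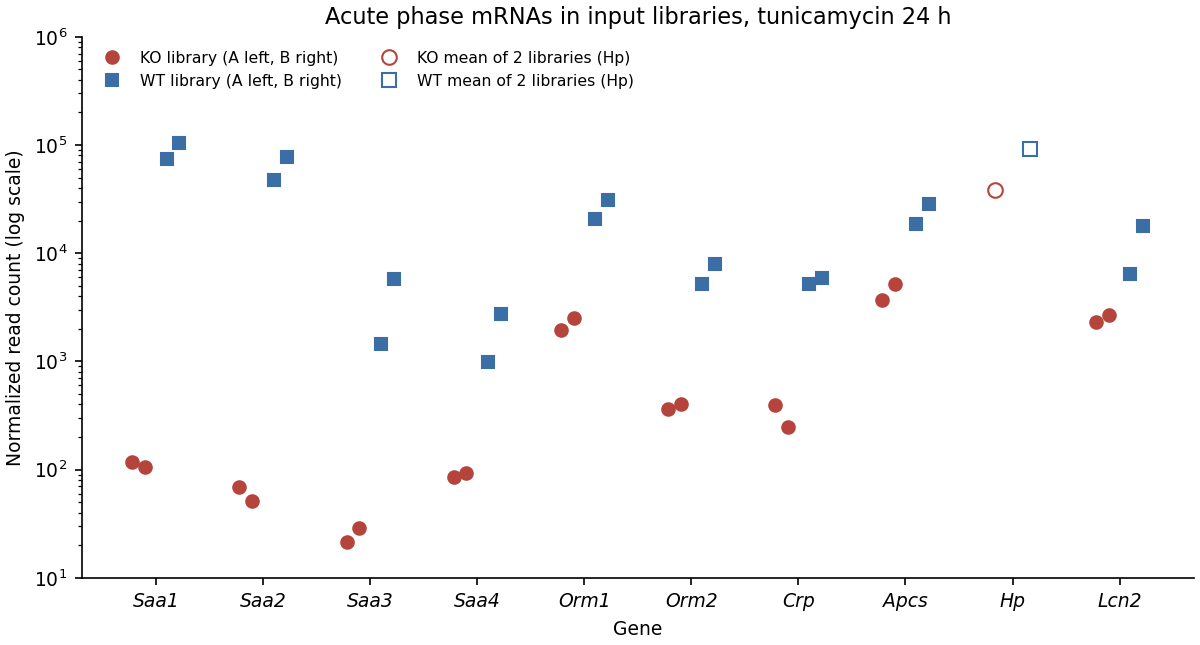
Normalized read count (log scale) of each gene in the KO input libraries (red circles, A left and B right) and the WT input libraries (blue squares, A left and B right). Hp is drawn as the mean of each genotype (open symbols) because its counts per library could not be recovered, and in the other 9 genes no KO value reaches a WT value.

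Saa1 and Saa2, the main circulating serum amyloids carried on high-density lipoprotein, had the largest falls of the group. Saa1 had 118 and 105 normalized counts in KO A and KO B, against 74252 and 103548 in WT A and WT B. Saa2 had 69.3 and 51.0 in KO A and KO B, against 47106 and 78150.1 in WT A and WT B. The lowest WT library was 630-fold above the highest KO library for Saa1 and 679-fold for Saa2, so the genotypes were far apart compared with the spread within each. Saa1 had a log2 change of -9.64 ± 0.22 (SE) in the authors' deposited table, a 796-fold fall, and Saa2 had one of -10.02 ± 0.27, a 1039-fold fall, both with an adjusted p listed as 0 by DESeq2. By size of fall they stood 15th and 11th of the 14257 tested genes. KO livers were not without these mRNAs, since 148 and 124 reads of Saa1 and 87 and 60 reads of Saa2 were counted in KO A and KO B. The sequences of Saa1 and Saa2 are so alike that reads can be assigned to either, and the sources used here do not say how such reads were counted. Their sum, which does not depend on the split between them, was 187 and 156 normalized counts in KO A and KO B, against 121359 and 181699 in WT A and WT B.

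Saa3, which in the mouse is made by macrophages and adipocytes as well as by stressed liver, followed with counts that were low in KO and uneven in WT. It had 21.5 and 28.9 normalized counts in KO A and KO B, against 1459.9 and 5714 in WT A and WT B. The WT libraries differed 3.91-fold from each other, yet the lower one was 50.5-fold above the higher KO library. The log2 change in the authors' deposited table was -7.15 ± 0.94 (adjusted p = 5.76e-13, DESeq2), a 142-fold fall. By limma on the recovered counts it was -6.80, and leaving out WT A or WT B moved it to -7.78 or -5.82.

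Saa4, the serum amyloid regarded as constitutive, had 85.3 and 92.6 normalized counts in KO A and KO B, against 984 and 2769 in WT A and WT B. The KO libraries were close to each other and the WT libraries were 2.81-fold apart, with no overlap. The fall was 21.1-fold, with a log2 change of -4.40 ± 0.72 (authors' deposited table, DESeq2 adjusted p = 8.63e-09). Without WT A or WT B the limma value of -4.20 became -4.95 or -3.45. The inducible and the constitutive serum amyloids were therefore all lower in KO livers, in the order of fitted fall Saa2, Saa1, Saa3 and Saa4. The 95% intervals of Saa1 (-10.07 to -9.20) and Saa2 (-10.54 to -9.50) overlap, and so do those of Saa3 (-9.00 to -5.30) and Saa4 (-5.80 to -2.99).

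Orm1 and Orm2 encode alpha-1-acid glycoprotein, a plasma carrier of basic drugs and lipophilic molecules, and lie side by side with Orm3 on chromosome 4 (chr4:63344556-63348163 and chr4:63362449-63365877 for Orm1 and Orm2, plus strand). Orm1 had 1948 and 2512 normalized counts in KO A and KO B, against 20747 and 30844 in WT A and WT B. Orm2 had 359 and 405 in KO A and KO B, against 5236 and 7912 in WT A and WT B. Each gene was several-fold lower in every KO library than in any WT library. The authors' deposited table gives Orm1 a log2 change of -3.53 ± 0.22 (adjusted p = 3.48e-54, DESeq2), an 11.6-fold fall. For Orm2 it was -4.10 ± 0.22 in the authors' deposited table (adjusted p = 9.71e-72, DESeq2), a 17.2-fold fall, and the 95% intervals of both genes (-3.97 to -3.10 for Orm1, -4.54 to -3.66 for Orm2) overlap. These paralogs can also share reads. Their sum was 2307 and 2917 normalized counts in KO A and KO B, against 25982 and 38756 in WT A and WT B. Orm3, which is not one of the 10 genes and is named after its values were seen, had 47.8 and 60.3 normalized counts in KO A and KO B. Its WT counts were 333 and 292 in WT A and WT B.

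The pentraxins bind bacterial and damaged-cell surfaces and start complement. Crp (chr1:172698056-172699966, plus strand) had 398 and 248 normalized counts in KO A and KO B, against 5238 and 5937 in WT A and WT B. Here the WT libraries were within 1.13-fold of each other, the closest WT pair among the 9 genes, and KO A was the higher KO library. The log2 change was -4.11 ± 0.23 in the authors' deposited table (adjusted p = 7.52e-69, DESeq2), a 17.3-fold fall. Apcs, which encodes serum amyloid P (chr1:172893961-172895054, minus strand), had 3659 and 5141 normalized counts in KO A and KO B, against 18747 and 28700.3 in WT A and WT B. Its fall was 5.39-fold, with a log2 change of -2.43 ± 0.24 (authors' deposited table, adjusted p = 2.23e-23, DESeq2). The 95% intervals of Crp (-4.56 to -3.66) and Apcs (-2.89 to -1.97) do not overlap, although whether the 2 changes differ was not tested.

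Haptoglobin binds free haemoglobin in plasma. Hp (chr8:109575128-109579172, minus strand) had the smallest fall of the 10 genes. Its mean was 38468 normalized counts in KO and 90810.3 in WT, computed from the authors' deposited mean and fold change. Single libraries could not be read because the search for whole counts was too large for this gene and was not run. The log2 change was -1.24 ± 0.24 in the authors' deposited table (adjusted p = 1.20e-06, DESeq2), a 2.36-fold fall, so that 42.4% of the WT level was left in KO. With libraries scaled to equal total counts, which moves all log2 changes by 0.82 and left 7.36% of all tested genes lower, it was -0.42 with an adjusted p of 0.116 (Wald test with the deposited DESeq2 standard error), so the call for Hp was lost.

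Lcn2, which withholds iron from bacteria by binding their siderophores and is also stored in neutrophil granules, lies at chr2:32384637-32387739 on the minus strand. It had 2297 and 2667 normalized counts in KO A and KO B, against 6406 and 17905 in WT A and WT B. The KO libraries were alike, and WT B was 2.80-fold above WT A. The log2 change was -2.29 ± 0.69 in the authors' deposited table (adjusted p = 0.00316, DESeq2), a 4.90-fold fall. Scaled to equal totals it was -1.47 with an adjusted p of 0.0556 (Wald test with the deposited DESeq2 standard error), past the threshold no longer, whereas limma on the recovered counts at equal totals gave -1.29 with an adjusted p of 0.0269. Without WT B the limma value of -2.11 became -1.37, and without WT A it became -2.85.

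**Figure D2:**
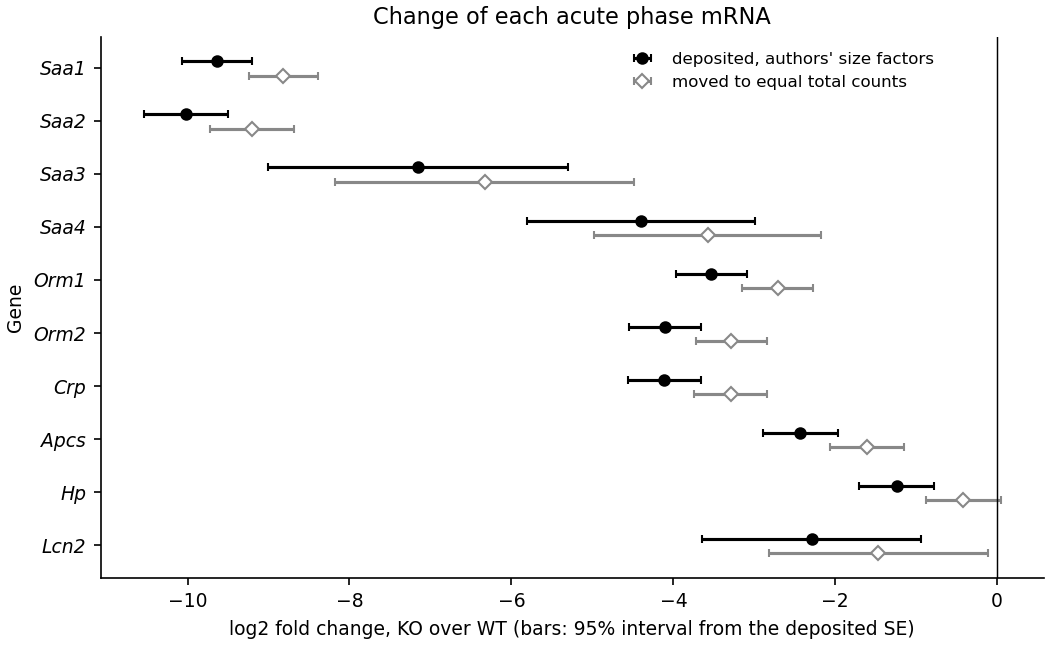
Log2 fold change of each gene, KO over WT, as deposited (black circles) and moved to equal total counts (grey diamonds), with 95% intervals from the deposited standard errors. All 20 points lie below 0, from -10.02 to -0.42, and the interval of Hp reaches 0 at equal totals.

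Together the 9 genes with recovered counts took 0.0894% and 0.107% of the estimated total reads in KO A and KO B, against 0.990% and 1.55% in WT A and WT B. Saa1 and Saa2 alone took 0.00187% and 0.00148% of the reads in KO A and KO B, against 0.667% and 1.003% in WT A and WT B. With Hp set at the mean of its genotype, the 10 genes took 0.473% and 0.472% in KO A and KO B, against 1.49% and 2.06% in WT A and WT B. In the KO libraries most acute phase reads of the 10 genes thus came from Hp. By limma with a trend on the recovered counts, 9 of 9 genes were lower in KO at an adjusted p under 0.05, also with equal totals, where 24.5% of all genes it tested were lower and 8.01% with equal totals. Without KO A or without KO B, limma gave all 9 genes a negative log2 change. With 1 KO library left, no calls are read from those fits. In those fits the remaining KO library is assumed to vary like the WT libraries.

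The WT libraries differed from each other in a common direction. All 9 recovered genes had more in WT B than WT A, by a median of 1.53-fold, whereas 50.2% of the 12767 recovered genes with a mean of at least 10 had more in WT B and their median ratio was 1.002. A difference of at least 2-fold was seen in 3 of the 9 (Saa3, Saa4 and Lcn2) and in 3.82% of those genes. In KO, 6 of the 9 were higher in KO B than in KO A, against 54.1% of those genes, and the median ratio was 1.13. The neutrophil markers moved with WT B: 7 of 8 with a mean of at least 10 were at least 2-fold above WT A in WT B. The sum over the 14 recovered neutrophil markers was 297 and 217 normalized counts in KO A and KO B, against 182 and 404 in WT A and WT B, so the genotypes overlap. Of these markers Ltf, Camp and Stfa2l1 were at 0 in KO B, Elane and Ltf at 0 in both WT libraries, Stfa2l1 at 0 in WT A, and Camp, Mpo and Ngp at 0 in WT B. S100a9 (log2 change -0.13 ± 0.44) and S100a8 (-0.28 ± 0.61), the markers with the highest means, did not pass DESeq2's test. Their DESeq2 adjusted p was 0.848 and 0.749 in the authors' deposited table. Of the 9 tested neutrophil markers 1, Retnlg, was lower, beside 22.2% of all tested genes. The part of neutrophils in the levels of Lcn2 and Saa3 was not tested.

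**Figure D3:**
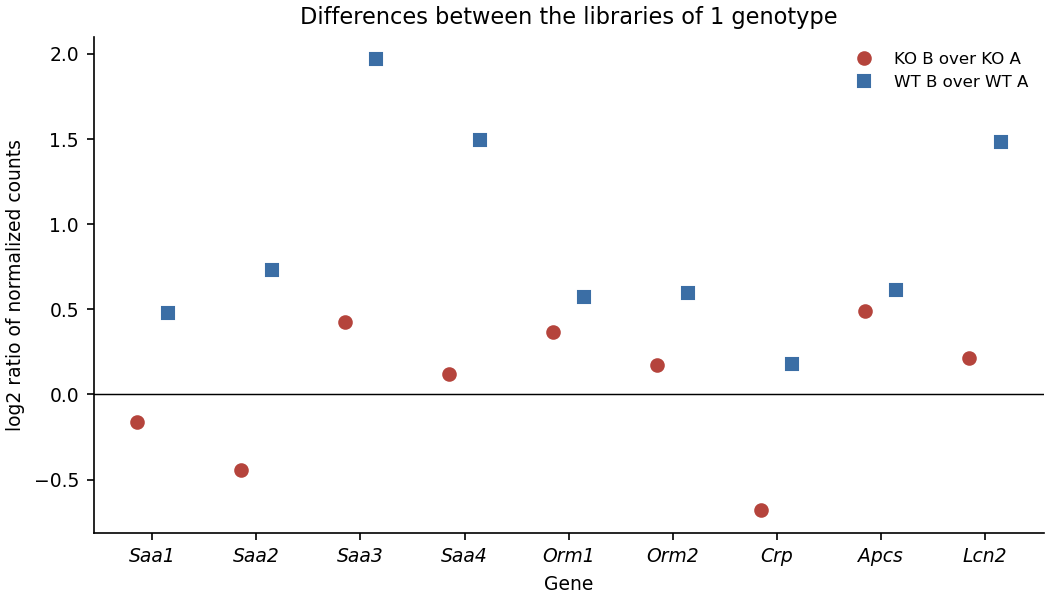
Log2 ratio of the 2 libraries of each genotype, KO B over KO A (red circles) and WT B over WT A (blue squares), for the 9 genes with recovered counts. All 9 WT ratios lie above 0, with Saa3, Saa4 and Lcn2 above 1, while the KO ratios of Saa1, Saa2 and Crp lie below 0.

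Most other acute phase genes of the liver were lower in KO too. Of 33 other positive acute phase proteins, 28 were lower and 1 was higher in the authors' deposited table (DESeq2, adjusted p under 0.05), with a median log2 change of -1.89. By the same rule 22.2% of all tested genes were lower and 20.4% higher. Among the 2218 tested genes with a mean count at least that of the lowest member, 58.1% were lower, and their median was -0.64. With equal totals 20 of the 33 were lower and 3 higher, and the median was -1.07. Over all tested genes, equal totals gave 7.36% lower and 51.2% higher, and moved the median log2 change to 0.87, against 0.05 in the authors' scaling, so counts at equal totals are read beside these shares. The 4 with the smallest adjusted p were Serpina1a, an alpha-1-antitrypsin gene with near-identical copies (log2 change -3.32 ± 0.18), Fgl1, a liver-secreted fibrinogen-like protein (-4.10 ± 0.22), Serpina1b (-2.90 ± 0.19) and Ambp, the precursor of alpha-1-microglobulin (-1.81 ± 0.18). The 1 that was higher was Cd14, the lipopolysaccharide co-receptor, with 481 and 477 normalized counts in KO A and KO B against 88.4 and 87.5 in WT A and WT B. Among these other positive acute phase proteins, 17 of 23 with recovered counts and a mean of at least 10 had more in WT B than WT A.

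Negative acute phase proteins, which an acute phase response lowers, were mostly lower in KO as well. Of 15, 11 were lower and 2 higher (authors' deposited table, DESeq2), with a median log2 change of -1.34. These counts stand beside 22.2% lower and 20.4% higher among all tested genes. Of the 2218 genes with a mean count at least that of the lowest member, 58.1% were lower, with a median of -0.64. With equal totals 7 of the 15 were lower and 2 higher, and the median was -0.52. The log2 change was -3.41 for Fetub, a fetuin, -2.65 for Rbp4, the plasma carrier of retinol, -2.19 for Pon1, an esterase of high-density lipoprotein, and -2.37 for Igf1. Apoa1 (0.64 ± 0.25) and Serpina7 (2.20 ± 0.86), named after their values were seen, were higher. Proteins that rise and proteins that drop in an acute phase response thus did not, as lists, move in opposite directions between the genotypes. Among the 9 negative acute phase proteins with recovered counts and a mean of at least 10, 4 had more in WT B than WT A, and 3 at least 2-fold more. Of the 23 other positive ones, 4 had at least 2-fold more in WT B.

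Most hepatocyte markers were lower too, but this list shares genes with others. Alb, Ttr, Trf and Apoa1 are also among the negative acute phase proteins above, and Hnf4a is among the transcription factors below. Of 10 tested hepatocyte markers 7 were lower and 2 higher in KO. Of all tested genes 22.2% were lower and 20.4% higher, and 58.1% of the 2218 with a mean count at least that of the lowest member were lower. The sum over the 4 hepatocyte markers with recovered counts was 34216 and 41623 normalized counts in KO A and KO B, against 155845 and 115038 in WT A and WT B. Alb (log2 change -1.58 ± 0.23) and Trf (-0.74 ± 0.18) had the highest means. Equal totals move all log2 changes up by 0.82, which is more than the fall of Trf, and the marker lists were not counted at that scaling. Of the markers of other cells, 5 of 6 for cholangiocytes and 6 of 10 for stellate cells and fibroblasts were higher, with 0 lower in either list. The summed level of the cholangiocyte markers was 4098 and 3113 in KO A and KO B, against 637 and 773 in WT A and WT B, with Cftr at 0 in both WT libraries and Krt7 at 0 in WT B. That of the stellate cell and fibroblast markers was 11150.4 and 8039 in KO A and KO B, against 4743 and 3726 in WT A and WT B. Of 19 macrophage and Kupffer cell markers 2 were higher and 3 lower, and their sum was 9286 and 7951 in KO A and KO B, against 8201 and 7672 in WT A and WT B. The markers with the highest means were Spp1 (log2 change 2.24) and Sox9 (1.70) for cholangiocytes, Dcn (-0.03, not called) and Col3a1 (4.02) for stellate cells and fibroblasts, and Cd5l (-0.36, not called) and Cd68 (3.65) for macrophages. In whole liver, fewer hepatocytes and less RNA of a gene per hepatocyte cannot be told apart.

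**Figure D4:**
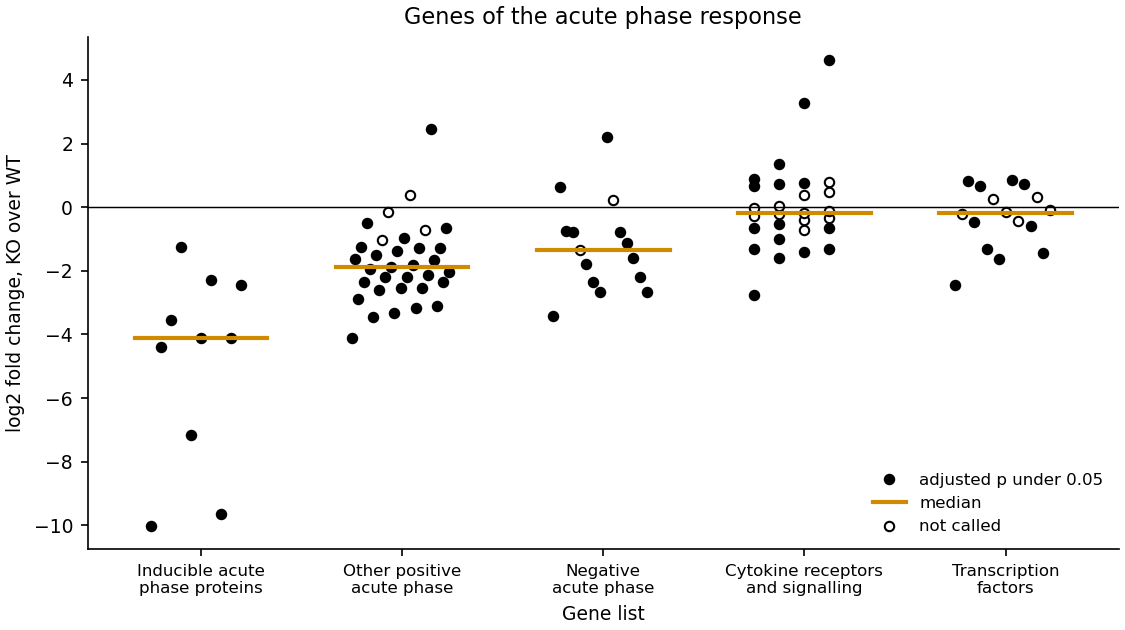
Log2 fold change, KO over WT, of the tested genes of 5 lists, filled where the adjusted p is under 0.05 in the authors' deposited table and open otherwise, with the median of each list as a line. The medians are -4.11 for the 10 inducible acute phase genes, -1.89 for other positive and -1.34 for negative acute phase proteins, -0.19 for cytokine receptors and signalling and -0.18 for transcription factors.

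Genes of the route from cytokines to these promoters were called in both directions. Of 28 tested receptors and signalling genes for IL-6, IL-1 and TNF, 9 were lower and 7 higher (authors' deposited table, DESeq2), where 22.2% and 20.4% of all tested genes were. With equal totals 3 were lower and 14 higher, beside 7.36% and 51.2% of all genes. The list's median was -0.19 and, with equal totals, 0.63, which is below the 0.87 of all genes. Il1rap, the accessory chain of the IL-1 receptor, had 157 and 239 normalized counts in KO A and KO B, against 1272 and 1388 in WT A and WT B (log2 change -2.75 ± 0.24). Stat3, the factor that carries the IL-6 signal into the nucleus, had 1569 and 1487 in KO A and KO B, against 3268 and 4323 in WT A and WT B (-1.31 ± 0.20). Both KO libraries were below both WT libraries for each of these genes. Socs3, a target of STAT3 that inhibits the same receptor, had 154 and 139 in KO A and KO B, against 325 and 571 in WT A and WT B (-1.61 ± 0.31).

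Il6ra, the IL-6 binding chain of the receptor, had 199 and 246 normalized counts in KO A and KO B, against 711 and 465 in WT A and WT B (log2 change -1.40 ± 0.27). Il6st, the signalling chain shared by this family of cytokines, was at 2643 and 2384 in KO A and KO B, against 1862 and 1957 in WT A and WT B (0.40 ± 0.18, adjusted p = 0.0678 by DESeq2 in the authors' deposited table). The binding chain was thus lower in KO, and the signalling chain did not pass the test, but with equal totals the signalling chain was higher (1.22, adjusted p = 2.56e-10) and the binding chain lost its call (Wald test with the deposited DESeq2 standard errors). Il1r1, the IL-1 receptor, was lower (-1.31 ± 0.25), while Il22ra1, a chain of the IL-22 receptor, was higher (3.28 ± 0.34). With equal totals Il1rap (-1.93), Stat3 (-0.49) and Socs3 (-0.79) remained past the threshold, and Il6ra (-0.58, adjusted p = 0.0556) and Il1r1 (-0.49, adjusted p = 0.0777) missed it (Wald test with the deposited DESeq2 standard errors). Il6 itself was barely detected, with 7.17 and 5.10 normalized counts in KO A and KO B, against 2.16 and 6.73 in WT A and WT B.

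Of 16 tested transcription factors that bind acute phase promoters, 6 were lower and 4 higher (authors' deposited table, DESeq2), beside 22.2% and 20.4% of all tested genes. With equal totals 4 were lower and 9 higher, beside 7.36% and 51.2% of all genes, and the list's median of -0.18 became 0.64, where that of all genes was 0.87. Cebpa, the C/EBP factor of the resting hepatocyte, had 577 and 544 normalized counts in KO A and KO B, against 3078 and 2998 in WT A and WT B (log2 change -2.44 ± 0.19). Creb3l3 had 3140 and 3945 in KO A and KO B, against 12546 and 9312 in WT A and WT B (-1.63 ± 0.21). Hnf4a, a nuclear receptor of hepatocyte identity, was at -1.44 ± 0.18. These 3 factors were lower under both scalings (-1.62, -0.80 and -0.62 with equal totals). Cebpb and Cebpd, the C/EBP factors induced in acute inflammation, and Nfkbiz, an NF-kB cofactor, did not pass the test, with log2 changes of -0.44 ± 0.20, -0.10 ± 0.31 and -0.42 ± 0.32, and with equal totals they stood at 0.38, 0.73 and 0.41, of which Cebpd passed (adjusted p = 0.0342, Wald test with the deposited DESeq2 standard error). Nfkbiz belongs to the signalling list. The NF-kB subunits Rela (0.73 ± 0.21) and Nfkb1 (0.68 ± 0.24), named after their values were seen, were higher in the authors' deposited table (adjusted p of 0.00194 and 0.0148, DESeq2), and stood at 1.547 and 1.497 with equal totals.

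Of 22 tested receptors and partners of the 10 proteins, 4 were lower and 1 higher (authors' deposited table, DESeq2), and 1 lower and 8 higher with equal totals. The shares of all tested genes were 22.2% lower and 20.4% higher, and 7.36% and 51.2% with equal totals. The lower ones with the smallest adjusted p were Hpx, the plasma haem carrier (log2 change -1.67 ± 0.19), Scarb1, the receptor for high-density lipoprotein (-1.02 ± 0.20), and Lrp1, an endocytic receptor (-0.98 ± 0.22). With equal totals Hpx was at -0.85 and kept its call, and Scarb1 (-0.20, adjusted p = 0.384) and Lrp1 (-0.16, adjusted p = 0.548) lost theirs (Wald test with the deposited DESeq2 standard errors). Cd36, a scavenger receptor that binds serum amyloid A, was higher (0.92 ± 0.26). Cd163, the macrophage receptor for haptoglobin bound to haemoglobin, had 120 and 143 normalized counts in KO A and KO B, against 288 and 218 in WT A and WT B, and is named after its values were seen. Its log2 change of -0.95 became -0.13 with equal totals, and its call was lost.

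The m6A peak lists hold 1 list per genotype, so no peak value has a replicate check. The KO list held 12290 peaks in 5861 genes and the WT list 5586 peaks in 2988 genes. Of the 10 acute phase genes, 5 had a peak in the KO list (Orm1, Crp, Apcs, Hp and Lcn2) and 10 had one in the WT list. Of all tested genes, 41.1% had a KO peak and 21.0% a WT peak. Among the 2218 genes with a mean at least that of the lowest member these shares were 90.1% and 69.8%. A peak in the WT list alone was held by 5 of the 10 genes (Saa1, Saa2, Saa3, Saa4 and Orm2), by 1.80% of all tested genes and by 1.98% of the 2218. Of the 763 of these that were at least 2-fold lower in KO, 86.6% had a KO peak, 78.5% a WT peak and 3.67% a WT peak alone. The 5 genes without a KO peak had mean KO levels of 25.2 to 382 normalized counts, and those with one had 323 to 38468. Of 6844 tested genes with KO means between 25.2 and 382, 26.3% had a KO peak, and of the 598 of them with a WT peak, 74.1% did. A lost mark and a level too low for a peak to be called cannot be told apart in these lists.

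**Figure D5:**
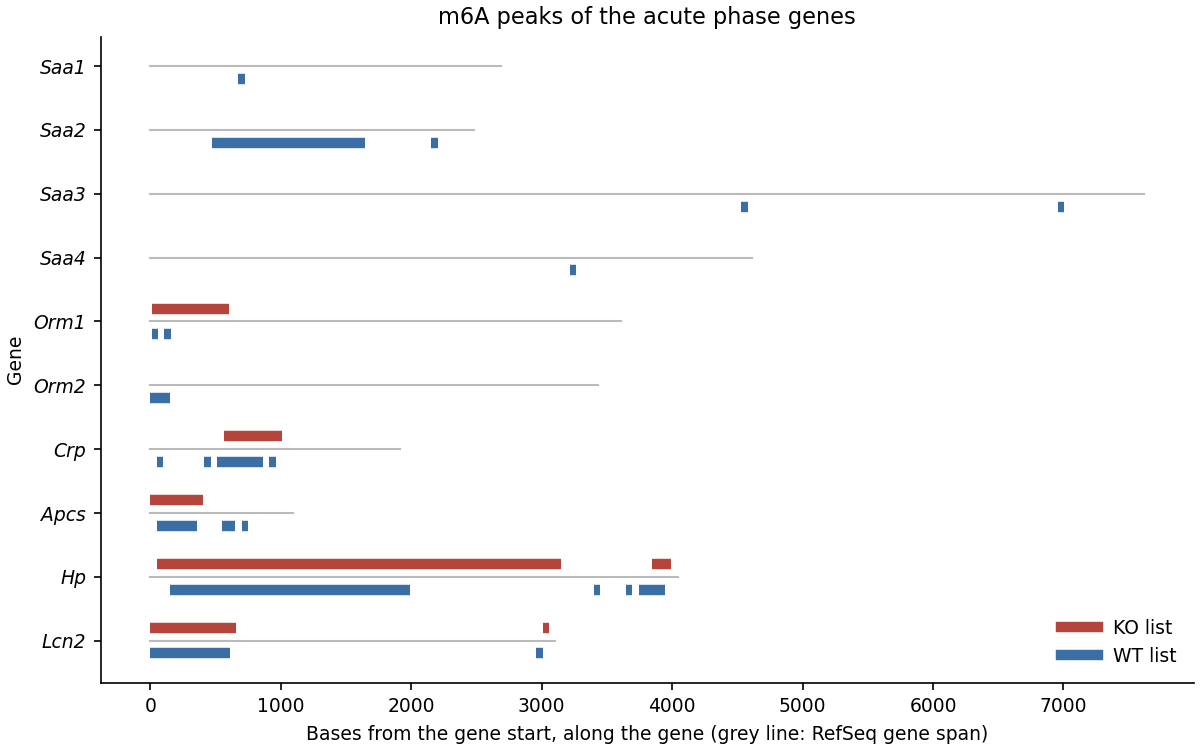
Positions of the m6A peaks along each gene, in bases from the gene start, for the KO list (red, above the line) and the WT list (blue, below it), with the RefSeq gene span in grey. Peaks of several blocks are drawn from their first to their last base. Saa1, Saa2, Saa3, Saa4 and Orm2 have WT peaks and no KO peak, and all 7 KO peaks lie over WT peaks.

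The KO list held 7 peaks and the WT list 22 peaks in the 10 genes. All 7 KO peaks overlapped a WT peak by at least 1 base of a block, and 9 of the 22 WT peaks overlapped a KO peak. By the same rule 28.3% of all KO peaks overlapped a WT peak of their gene, and 75.4% of all WT peaks overlapped a KO peak. The enrichment that the authors list for each peak, taken as IP over input, had a median of 7.42 over the 7 KO peaks and of 3.30 over the 22 WT peaks, below the medians of 13.1 and 24.2 over the whole KO and WT lists. Most WT peaks of these genes were narrow, with 14 of 22 spanning a single window of 50 bases, as did 1 of the 7 KO peaks. In the whole lists this share was 32.7% in KO and 51.2% in WT. The second value of each peak, read as a p-value, was at most 0.00138 for all of them.

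The serum amyloid genes had peaks in the WT list alone. Saa1 had 1, at chr7:46742460-46742509, with an enrichment of 1.61. Saa2 had 1 of 2 blocks across chr7:46752302-46753480, with an enrichment of 4.32, and 1 at chr7:46753985-46754034, with 1.93. These enrichments were low beside the list's median although Saa1 and Saa2 were abundant in WT input. Saa3 had peaks at chr7:46715037-46715086 (3.60) and chr7:46712611-46712660 (2.83). Saa4 had 1 at chr7:46729338-46729387, with an enrichment of 14.0, the highest among the serum amyloids.

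The orosomucoid peaks lay at the start of the genes. Orm2 had 1 WT peak that began at the first base of the gene (chr4:63362449-63362595, enrichment 4.09). In Orm1 the KO peak of 2 blocks, chr4:63344566-63345160, began 10 bases after the gene start with an enrichment of 7.42. It covered the WT peaks at chr4:63344566-63344615 (3.68) and chr4:63344662-63344711 (4.87). The KO value was thus 2.01 and 1.52 times those of the WT peaks, in a gene whose input level was 11.6-fold lower in KO.

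Crp carried the most enriched peaks of the group, near the middle of the gene. The KO peak at chr1:172698619-172699067 had an enrichment of 33.2, against 46.1 for the WT peak at chr1:172698569-172698917 and 19.4 for the WT peak at chr1:172698968-172699017, both of which it overlapped. The WT list held another 2 in Crp, at chr1:172698106-172698155 (1.49) and chr1:172698469-172698518 (2.16). In Apcs the KO peak chr1:172894649-172895054, which reached the gene start, had an enrichment of 6.16, against 1.91 for the WT peak inside it at chr1:172894698-172895005. Apcs had WT peaks without a KO counterpart at chr1:172894403-172894502 (3.01) and chr1:172894305-172894354 (3.80).

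In Hp the KO list held a peak of 5 blocks across chr8:109576025-109579122 with an enrichment of 19.3, against 4.28 for the WT peak of 3 blocks at chr8:109577179-109579023. Near the 3′ end of Hp the KO peak chr8:109575178-109575326 had 1.77, against 2.84 for the WT peak chr8:109575228-109575426. The WT peaks at chr8:109575477-109575526 (2.01) and chr8:109575726-109575775 (1.22) had no KO counterpart. Lcn2 had a matching pair in each list. The pair that reached the gene start had an enrichment of 24.6 in KO (chr2:32387086-32387739), against 18.7 in WT (chr2:32387133-32387739), and the pair near the 3′ end had 3.80 in KO (chr2:32384684-32384733), against 2.60 in WT (chr2:32384731-32384780), with 3 bases in common.

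Over the 9 overlapping pairs in these genes, the enrichment was higher in KO in 7, with a median KO over WT ratio of 1.52. Over all 4282 overlapping pairs of the lists, 24.9% were higher in KO and the median ratio was 0.507. The exceptions were the larger Crp pair and the 3′ pair of Hp, with ratios of 0.720 and 0.623. The lists give 1 value per peak with no error, several pairs share a KO peak, and the pairs come from 5 genes, so no test was made of this difference. A pair needed only 1 shared base, and its peaks could differ in width. The larger Hp pair had 403 bases in KO blocks and 153 in WT blocks. At an overlap of at least 50% of each peak, 3 of the 9 shared WT peaks were left.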

How the data were processed

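Input and m6A IP libraries of 4 groups (2 each) were mapped to mm10. The submitters' processing notes name HISAT2 2.1.0 and DESeq2 1.18.1. The sources used here do not give the read counter, its handling of multi-mapping reads or the peak caller. In the table deposited by the authors the mean per gene is a signal (counts divided by size factors, averaged over the input libraries), the fold change and its error are in log2 units, the test value is a score (Wald) and p-values are given raw and adjusted. In the deposited peak lists the enrichment was taken as a ratio and the other value as a p-value.

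Counts per library were recovered by search for 4 whole numbers that give the deposited mean, guided by the deposited fold change above a mean of 40, so the recovered counts are not independent of it. For genes recovered with this guide, fold changes computed from the counts differed from the deposited log2 values by at most 4.50e-05. A close match was a condition for accepting those counts. The 5150 genes recovered without the fold change are not in this comparison. The size factors were 1.25 and 1.18 (KO A, KO B), and 0.927 and 0.743 (WT A, WT B). The search was tested on simulated data. The main result is the authors' test, with calls at an adjusted p under 0.05. limma 3.58.1 (R 4.3.3) with a trend on log2(normalized count + 1) was an alternative, as were other pseudocounts, a minimum mean of 10, re-centring, equal totals, leaving out each library and other peak thresholds. Counting error limits rare mRNAs, and for peaks the depth is unknown. Peaks overlap where blocks share at least 1 base. Positions are 1-based.

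The members and lists were chosen with earlier results of these data known, including those of an earlier report on the series. By rule, the text names all members, Mettl14, up to 4 called genes with the smallest adjusted p of each of 5 other lists, the IL-6, STAT3, C/EBP and Creb3l3 route with Nfkbiz, and for marker lists the 2 highest means and markers at 0. Of the marker lists, 1 of 8 tested endothelial markers was lower and 0 of 8 tested lymphocyte markers were called. Of all tested genes 22.2% were lower and 20.4% higher. The highest endothelial means were those of Stab2 and Clec4g. The highest lymphocyte means were those of Cd4 and Nkg7, at only 8.27 and 8.24 normalized counts. The lymphocyte marker Gzmb was at 0 in KO B.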

Additional observations from a re-analysis of the deposited data

How the results depend on the processing

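All 10 genes kept a negative log2 change after re-centring and at equal totals, and so did the 9 genes other than Hp in every limma fit, with its pseudocounts and minimum mean. After re-centring on the median of all genes 10 were called lower, as were 3314 of all 14257 tested genes. Scaling to equal totals left 8 of 10 called, beside 7.36% of all tested genes called lower. Hp at -0.42 and Lcn2 at -1.47 were past the threshold no longer (deposited standard errors). At equal totals limma called Lcn2 (-1.29, adjusted p = 0.0269) and could not be fitted for Hp. Of all genes that limma tested at equal totals, 8.01% were lower. Leaving out each library in turn (limma, 9 genes) gave between 0 and 9 calls, 0 without either KO library and 9 without either WT library. The log2 changes then ranged from -9.85 to -9.37 (Saa1), -10.34 to -9.61 (Saa2), -7.78 to -5.82 (Saa3), -4.95 to -3.45 (Saa4), -3.80 to -3.23 (Orm1), -4.37 to -3.77 (Orm2), -4.48 to -3.81 (Crp), -2.73 to -2.11 (Apcs) and -2.85 to -1.37 (Lcn2). Without a KO library the spread rests on the WT libraries alone. With peaks of at least the median enrichment of their list, 3 of the 10 genes had a KO peak and 1 a WT peak. The share of all genes with a peak at that cut was not computed. Requiring blocks to share at least 50% of each other left 3 of the 9 shared WT peaks, and a p-value under 0.01 changed no peak count. No paired analysis was possible because the recovered libraries carry no replicate number. With 2 libraries per genotype and 1 peak list per genotype, small differences cannot be resolved. The largest deposited standard errors were those of Saa3 (0.94), Saa4 (0.72) and Lcn2 (0.69), the genes whose WT libraries differed at least 2-fold. Saa1 and Saa2 had standard errors of 0.22 and 0.27 despite their low KO counts.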
